A study of Mus musculus with 20 samples.

Results

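The fatty acid desaturases and elongases described here are 10 genes, *Fads1*, *Fads2*, *Fads3*, *Fads6*, *Elovl1*, *Elovl2*, *Elovl5*, *Elovl7*, *Scd1* and *Scd2*, of the 31874 genes measured by RNA-seq in mouse hearts. They were listed by name as enzymes of fatty acid desaturation and elongation, with no threshold on a measured value, but with earlier results of these data known. The list is not complete, and 7 further genes of these families, *Elovl3*, *Elovl4*, *Elovl6*, *Scd3*, *Scd4*, *Degs1* and *Degs2*, are described apart from it. All 10 were found, and 8 were abundant enough for testing, with an average over the 20 hearts of 0.1 FPKM or more (FPKM, fragments scaled to the exon length of the gene and to the size of the library). *Elovl2* and *Elovl7* were below this level. The study compared 4 groups of 5 hearts each, taken from wild-type C57BL/6J mice (WT) and from *fat-1* transgenic mice, all 3 months old, and isolated and perfused with buffer on a Langendorff apparatus. For the controls, WT-Con and Fat1-Con, perfusion ran for 120 min without interruption. The hearts of WT-IR and Fat1-IR were equilibrated for 40 min, kept without flow for 20 min (global ischemia) and reperfused for 1 h, together ischemia-reperfusion (IR). The *fat-1* gene comes from *Caenorhabditis elegans* and encodes an n-3 desaturase, an enzyme that mammals lack and that turns n-6 into n-3 polyunsaturated fatty acids. The sources used here give neither its promoter nor whether WT and *fat-1* mice were littermates, and its own transcript was not analysed here because the table lists mouse genes. Ventricular tissue was used, so each value mixes all cell types of the ventricle, and fewer cells of a type cannot be told apart from less RNA per cell.

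Unsaturated fatty acids are made in the endoplasmic reticulum by desaturases, which place a double bond in the chain with electrons from cytochrome b5, and by elongases, which carry out the rate-limiting condensation when the chain is lengthened. *Scd1* and *Scd2* encode stearoyl-CoA desaturases, which turn saturated into monounsaturated fatty acids. *Fads2* and *Fads1* encode the delta-6 and delta-5 desaturases that, with the elongases ELOVL5 and ELOVL2, convert the essential n-6 and n-3 fatty acids of the diet to arachidonic acid, EPA and DHA. In liver, polyunsaturated fatty acids are known to lower the expression of *Scd1* and of the *Fads* genes through the transcription factor SREBP-1. The heart takes up most of its fatty acids from the blood, and its capacity to make the long polyunsaturated ones is regarded as low.

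The 20 libraries held between 15626848 and 25993338 fragments assigned to genes (median 19526072), of which the mitochondrial genome took 13.9% to 39.3%. The summed FPKM of 10 cardiomyocyte markers was between 16880 and 38250 in each heart. WT-Con 5 and Fat1-IR 1 had the highest sums of these markers in their groups, 38250 and 26350 FPKM. Their mitochondrial shares were 15.1% and 13.9%, whereas every other library had at least 28.4%. WT-Con 5 was also the smallest library. Fat1-IR 4 was the only heart with a summed lymphocyte marker level above 2.11 FPKM (79.2 FPKM). These 3 libraries stood apart, and the calls and differences of *Elovl5*, *Fads1*, *Fads3*, *Scd1* and *Scd2* are given with and without them.

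Among the 10 transcripts, *Fads3* had the highest level and *Elovl2* the lowest. *Fads3*, which encodes an enzyme that desaturates sphingoid bases, averaged 14.4 FPKM over the 20 hearts, a level above that of 88.4% of the genes tested. *Scd1* (7.93 FPKM) and *Elovl5* (7.49 FPKM) followed, although the median heart had only 3.31 FPKM of *Scd1*. *Elovl1*, an elongase of saturated and monounsaturated chains used in ceramides, averaged 4.05 FPKM. *Fads1*, *Scd2* and *Fads2* averaged 2.97, 2.56 and 2.07 FPKM. *Fads6*, whose substrate is not assigned here, averaged 0.394 FPKM, with 18 to 86 fragments in a heart. *Elovl7*, an elongase of saturated very long chains, averaged 0.0708 FPKM, from 0 to 22 fragments in a heart, and was listed at 0 in 2 hearts. *Elovl2*, the elongase on the route to DHA, averaged 0.0316 FPKM, from 0 to 10 fragments, and was listed at 0 in 3 hearts. *Elovl2* and *Elovl7* were below the level set for testing, so a difference between groups was neither shown nor excluded for them.

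**Figure D1:**
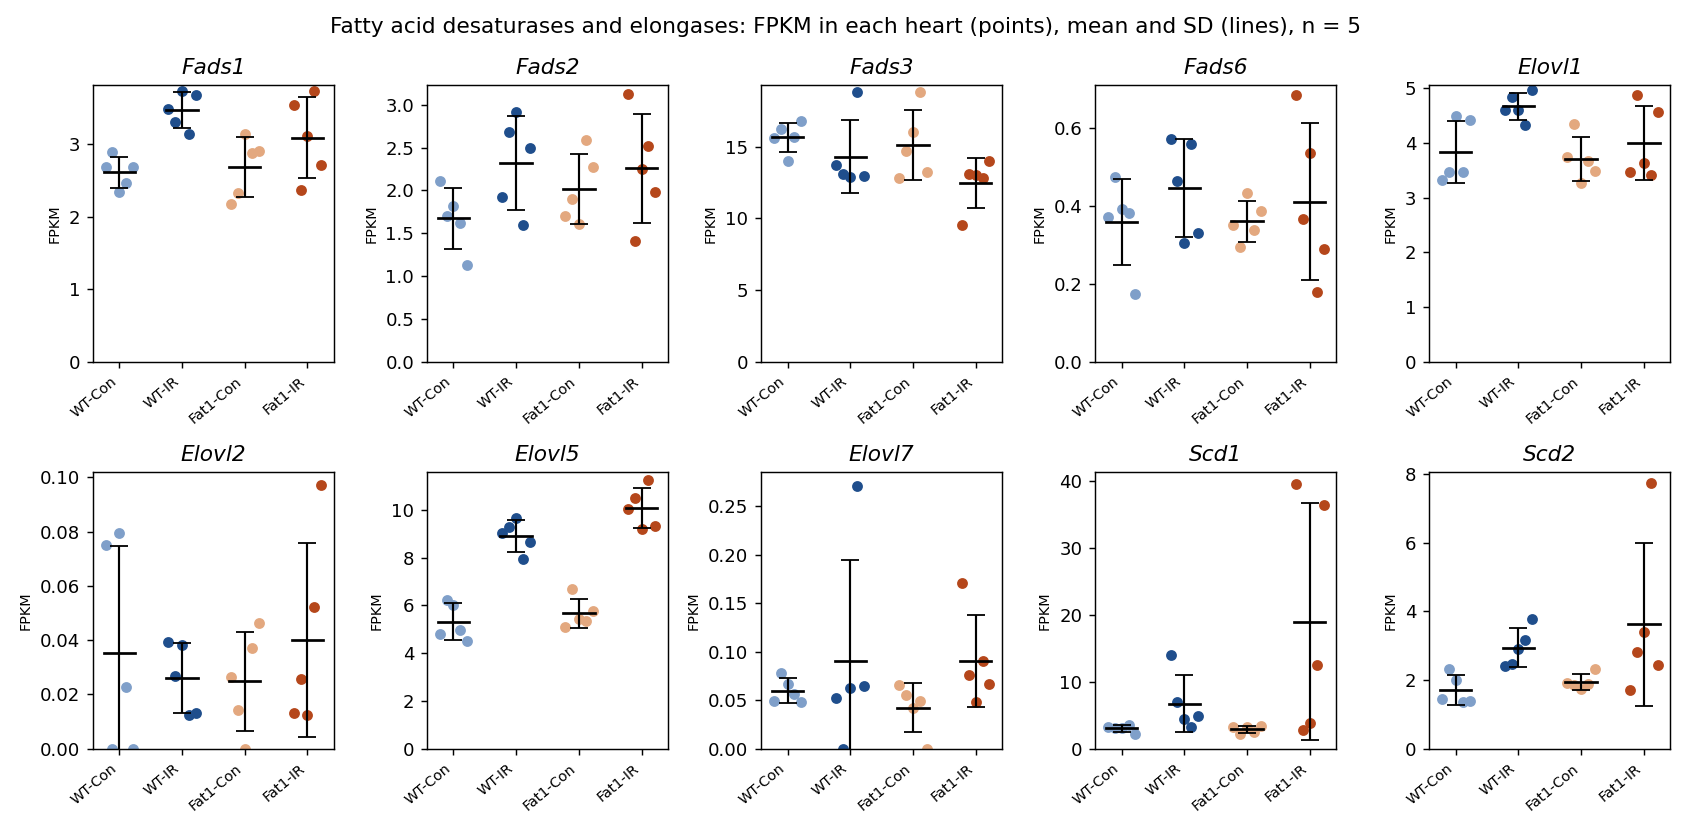
FPKM of the 10 genes (vertical axes, each starting at 0) in every heart of the 4 groups (points), with the group mean and SD as lines, n = 5 hearts per group. All 10 IR hearts lie above all 10 control hearts for *Elovl5* (lowest IR heart 7.93 FPKM, highest control heart 6.68 FPKM), and *Scd1* spreads from 2.81 to 39.5 FPKM within Fat1-IR.

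Of the 8 genes tested, *Elovl5* alone passed the test in WT-IR against WT-Con and in Fat1-IR against Fat1-Con, and it rose in both. A gene passed where limma gave a Benjamini-Hochberg adjusted p under 0.05 over 18219 genes and the fold change was over 1.5. In WT hearts 1 of 8 rose and 0 fell, where 2.01% of all genes rose and 1.19% fell. In *fat-1* hearts 1 of 8 rose and 0 fell, where 1.30% of all genes rose and 0.703% fell. At an unadjusted p under 0.05, 5 of 8 were higher and 0 lower in WT-IR, where 9.84% of all genes were higher and 5.09% lower. In Fat1-IR 3 of 8 were higher, where 8.38% of all genes were, and *Fads3* was lower, where 4.17% were. The median log2 difference of the 8 genes was 0.42 in WT hearts, beside 0.04 over all genes, and 0.16 in *fat-1* hearts, beside 0.08. *Scd1* and *Scd2* passed only when IR was averaged over both genotypes. No member passed between the genotypes.

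**Figure D2:**
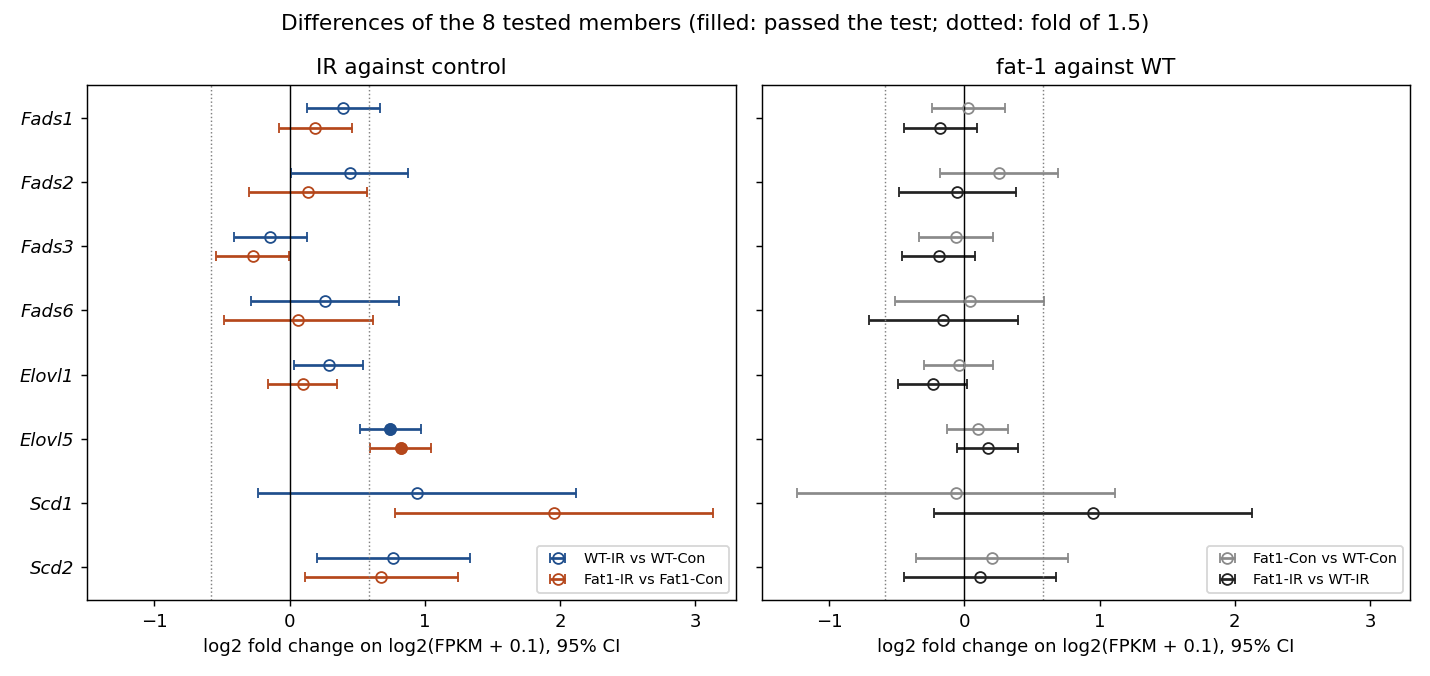
Log2 fold changes of the 8 tested genes on the log2(FPKM + 0.1) scale (horizontal axis) with 95% confidence intervals, for IR against control in each genotype and for *fat-1* against WT in each perfusion, n = 5 hearts per group. Filled points passed the test, the dotted lines mark a fold of 1.5, and the 2 filled points are those of *Elovl5* in WT (0.75) and in *fat-1* hearts (0.82).

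ELOVL5 lengthens the polyunsaturated chains that the delta-6 desaturase has made. Its gene lies on chromosome 9 (mm10, 77917364 to 77984519, plus strand, exon length 3522 bases). The 250 bases before its start are shown because *Elovl5* is the member that moved in both genotypes (RefSeq, GRCm38.p6, chr9:77917115-77917364, plus strand), with CACGTG and both copies of ATTGG in capitals.
Elovl5: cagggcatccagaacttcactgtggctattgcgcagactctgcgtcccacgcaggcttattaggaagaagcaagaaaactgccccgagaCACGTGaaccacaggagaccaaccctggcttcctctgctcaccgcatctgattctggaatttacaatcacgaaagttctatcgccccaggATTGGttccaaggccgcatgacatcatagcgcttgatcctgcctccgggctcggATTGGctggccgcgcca
The capitals mark an E-box, CACGTG, which starts 161 bases before the RefSeq start and reads the same on both strands, and 2 CCAAT boxes on the opposite strand, which start 71 and 17 bases before it. The promoters of RefSeq, 250 bases before to 50 after a start, held 7 of the 10 genes with 9 promoters. *Fads1*, *Scd1* and *Scd2* were not matched. The E-box was found in 1 of these 9 promoters, that of *Elovl5*, and in 7.15% of all 32851 promoters, on either strand. The CCAAT box (CCAAT or ATTGG) was found in 3 of the 9 and in 37.4% of all, and the GC box (GGGCGG or its reverse complement) in 7 of the 9 and in 35.7% of all, the 2 motifs overlapping in *Elovl1*. TCACNCCAC, a form of the sterol regulatory element, was found in 0 of the 9 and in 1.24% of all, the heat shock element, searched as 3 alternating units, in 0 of the 9 and in 0.603%, and TATAAA in 0 of the 9 and in 13.6%. Each match is a description of letters in these windows only.

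*Elovl5* was at 4.80, 6.24, 6.02, 4.97 and 4.52 FPKM in WT-Con hearts 1 to 5 and at 9.04, 9.30, 9.66, 7.93 and 8.64 FPKM in WT-IR hearts. In *fat-1* hearts it was at 5.11, 6.68, 5.43, 5.33 and 5.76 FPKM in Fat1-Con and at 10.01, 10.5, 9.21, 11.3 and 9.34 FPKM in Fat1-IR. Every IR heart of either genotype was above every control heart. In WT hearts the mean was 5.31 ± 0.770 FPKM without and 8.91 ± 0.664 FPKM with IR (SD, n = 5), a rise with a log2 fold change of 0.75 (SE 0.11, limma adjusted p = 0.000431) and a fold of 1.68 (95% CI 1.44 to 1.96). In *fat-1* hearts it was 5.66 ± 0.615 FPKM without and 10.1 ± 0.845 FPKM with IR (SD, n = 5), a rise with a log2 fold change of 0.82 (SE 0.11, limma adjusted p = 0.000153) and a fold of 1.77 (95% CI 1.51 to 2.06). The rise in *fat-1* hearts exceeded that in WT hearts by 0.08 on the log2 scale (95% CI -0.24 to 0.39, limma interaction adjusted p = 0.911), an interval that reaches a difference between the genotypes of 0.39. Without the 3 libraries that stood apart, a fit chosen after seeing the data, the log2 fold changes of *Elovl5* were 0.69 in WT (limma adjusted p = 0.000446) and 0.77 in *fat-1* hearts (limma adjusted p = 0.000786).

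*Elovl1* was at 3.32, 3.47, 4.48, 3.47 and 4.41 FPKM in WT-Con and at 4.60, 4.84, 4.60, 4.32 and 4.97 FPKM in WT-IR, where 4 of 5 hearts were above every WT-Con heart. The log2 difference was 0.29 (SE 0.12, 95% CI 0.03 to 0.54) and did not pass the test (limma adjusted p = 0.253). In *fat-1* hearts the levels overlapped in part, at 3.27 to 4.34 FPKM in Fat1-Con and 3.42 to 4.87 FPKM in Fat1-IR, where 2 of 5 hearts were above every Fat1-Con heart, with a log2 difference of 0.10 (95% CI -0.16 to 0.35, limma adjusted p = 0.789). The exons of *Elovl1* (chromosome 4, 118428093 to 118432953, plus strand) share 53 bases, 1.94% of its exon length, with *Cdc20* on the opposite strand, and reads there cannot be assigned to a strand since the sources used here do not say whether counting used strand. *Elovl7* was at 0.0485 to 0.171 FPKM in Fat1-IR and at 0 to 0.0658 FPKM in Fat1-Con, and in WT-IR 1 heart was at 0.272 FPKM and another at 0. *Elovl2* did not exceed 0.0970 FPKM in any heart.

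The genes of the front-end desaturases lie together on chromosome 19. *Fads3* (10041569 to 10060110, plus strand) is followed after 2.65 kb by *Fads2* (10062765 to 10101746, minus strand), and *Fads1* (10182888 to 10196877, plus strand) lies 81.1 kb further on. *Fads1*, the delta-5 desaturase, was at 2.69, 2.89, 2.34, 2.46 and 2.69 FPKM in WT-Con and at 3.49, 3.303, 3.74, 3.14 and 3.68 FPKM in WT-IR. The WT groups did not overlap, as held for *Elovl5*, *Fads1* and *Scd2* among the 8 tested genes and for 3.36% of all genes in that direction. In the opposite direction 0 of 8 and 1.39% of all genes did not overlap, and in *fat-1* hearts 1 of 8 was higher without overlap, *Elovl5*, and 0 lower, where 4.22% and 2.46% of all genes were. The log2 difference of *Fads1* was 0.40 (SE 0.13, 95% CI 0.13 to 0.67), and it did not pass the test (limma adjusted p = 0.107). In *fat-1* hearts *Fads1* was at 2.17, 2.33, 3.14, 2.88 and 2.91 FPKM in Fat1-Con and at 3.54, 2.37, 3.11, 3.73 and 2.72 FPKM in Fat1-IR. These groups overlapped, with a log2 difference of 0.19 (95% CI -0.08 to 0.46, limma adjusted p = 0.583). In the fit without the 3 libraries that stood apart, *Fads1* in WT-IR had an adjusted p of 0.0329 (limma) at a log2 difference of 0.41, which is below the fold of 1.5, and it was at 0.03 in *fat-1* hearts.

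*Fads2*, the delta-6 desaturase that starts the pathway, was at 2.10, 1.71, 1.81, 1.62 and 1.13 FPKM in WT-Con and at 1.93, 2.68, 2.92, 1.59 and 2.50 FPKM in WT-IR, so that 3 of 5 WT-IR hearts were above every WT-Con heart. In Fat1-Con it was at 1.70, 1.90, 1.61, 2.59 and 2.27 FPKM and in Fat1-IR at 3.13, 1.42, 2.25, 2.51 and 1.98 FPKM. *Fads2* passed in neither genotype, with log2 differences of 0.44 in WT (95% CI 0.01 to 0.88, limma adjusted p = 0.321) and 0.14 in *fat-1* hearts (95% CI -0.30 to 0.57, limma adjusted p = 0.826). The intervals leave room for a fold of 1.84 in WT and of 1.49 in *fat-1* hearts. The ratio of *Fads1* to *Fads2* had medians of 1.52 in WT-Con, 1.47 in WT-IR, 1.28 in Fat1-Con and 1.38 in Fat1-IR, and its ranges overlapped in the 4 groups.

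*Fads3* was the only tested member with a lower mean after IR. It was at 15.6, 16.2, 14.0, 15.6 and 16.8 FPKM in WT-Con and at 13.7, 13.1, 12.9, 18.8 and 12.9 FPKM in WT-IR. Thus 4 of 5 WT-IR hearts were below every WT-Con heart and WT-IR 4 was above all of them. In *fat-1* hearts *Fads3* was at 12.8, 14.7, 16.02, 18.8 and 13.2 FPKM in Fat1-Con and at 9.51, 13.1, 12.99, 12.8 and 14.0 FPKM in Fat1-IR, where Fat1-IR 1 alone was outside the Fat1-Con range. The log2 differences were -0.14 in WT (95% CI -0.41 to 0.13, limma adjusted p = 0.683) and -0.27 in *fat-1* hearts (95% CI -0.54 to 0.00, limma adjusted p = 0.395), and neither passed the test. Without the 3 libraries that stood apart they were -0.12 and -0.16. *Fads6* (chromosome 11, 115279622 to 115297663, minus strand) was at 0.173 to 0.474 FPKM in WT-Con, 0.304 to 0.571 in WT-IR, 0.293 to 0.433 in Fat1-Con and 0.179 to 0.684 in Fat1-IR. Its log2 differences were 0.26 in WT (95% CI -0.29 to 0.81, limma adjusted p = 0.726) and 0.06 in *fat-1* hearts (95% CI -0.49 to 0.61, limma adjusted p = 0.942).

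The 2 stearoyl-CoA desaturases had the widest range over the 20 hearts among the 8 tested members, a ratio of the highest to the lowest heart of 18.0 for *Scd1* and 5.64 for *Scd2*. *Scd2* (chromosome 19, 44293674 to 44306864, plus strand) and *Scd1* (44394455 to 44407879, minus strand) face each other across 87.6 kb. Of the windows of 50 bases in their transcripts, 4.56% in *Scd1* and 3.75% in *Scd2* are shared with each other or with *Scd3* and *Scd4*, so a small part of their reads cannot be assigned to a single gene. *Scd2* also shares 61 exon bases with *Mir5114* on the same strand. *Scd1* was at 3.28, 3.12, 3.15, 3.53 and 2.20 FPKM in WT-Con and at 14.1, 7.02, 4.45, 3.28 and 4.89 FPKM in WT-IR. It was at 3.28, 2.27, 3.18, 2.50 and 3.33 FPKM in Fat1-Con and at 39.5, 2.81, 3.81, 12.5 and 36.4 FPKM in Fat1-IR. The control hearts of both genotypes lay within 2.20 to 3.53 FPKM, whereas in each IR group 4 of 5 hearts were above every control heart of the same genotype and 1 was not. The coefficient of variation was 16.6% in WT-Con and 16.9% in Fat1-Con, beside 63.9% in WT-IR and 93.3% in Fat1-IR. *Scd1* passed in neither genotype. The log2 difference was 0.94 in WT (SE 0.56, 95% CI -0.23 to 2.12, limma adjusted p = 0.475) and 1.96 in *fat-1* hearts (SE 0.56, 95% CI 0.78 to 3.13, limma adjusted p = 0.0791). Without Fat1-IR 2 or without Fat1-IR 3, the hearts with the least *Scd1* in their group, the difference in *fat-1* hearts passed, at 2.46 (limma adjusted p = 0.0142) and 2.35 (limma adjusted p = 0.0298). Without Fat1-IR 1 or without Fat1-IR 5, the hearts with the most, it was at 1.51 (limma adjusted p = 0.215) and 1.54 (limma adjusted p = 0.200), and leaving out any other single heart did not make it pass. Without the 3 libraries that stood apart it was at 1.32 (limma adjusted p = 0.281), and at 0.83 in WT hearts (limma adjusted p = 0.385).

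The level of *Scd1* was highest in hearts that also had the highest mean log2 level of 10 adipocyte markers. The summed level of these markers did not follow *Scd1* in every heart, and Fat1-IR 4 had the lowest sum of its group (91.8 FPKM). *Scd1* is known to be abundant in adipocytes. *Cfd*, which encodes the adipocyte protein adipsin, was at 77.2, 2.69, 2.91, 11.3 and 18.99 FPKM in Fat1-IR hearts 1 to 5, and *Adipoq*, which encodes adiponectin, at 10.3, 0.587, 0.353, 1.61 and 3.62 FPKM. Both were highest in Fat1-IR 1, 5 and 4, the hearts with the most *Scd1* in that group. The mean log2 level of the 10 adipocyte markers was -0.83 to -0.18 in Fat1-Con and -0.40 to 2.64 in Fat1-IR, and -0.64 to 0.76 in WT-Con and -0.13 to 0.77 in WT-IR. Their summed level was 62.9 to 82.3 FPKM in Fat1-Con, 91.8 to 287 in Fat1-IR, 65.7 to 181.3 in WT-Con and 104 to 139.8 in WT-IR, most of it from *Fabp4*, which endothelial cells also express. Of the 8 adipocyte markers tested, 6 had an unadjusted p under 0.05 in Fat1-IR against Fat1-Con, and all 8 had a difference above 0. At that p 8.38% of all genes were higher and 4.17% lower. *Cfd* passed the test (log2 fold change 2.87, limma adjusted p = 0.0410), where 1.30% of all genes rose. In WT-IR 0 of 8 adipocyte markers had an unadjusted p under 0.05 and 0 passed, while 6 had a difference above 0. Of the defining markers, *Adipoq*, *Cfd* and *Plin1* were above 0 in every heart, and *Lep* was listed at 0 in 12 hearts, among them all 5 of Fat1-Con. *Ucp1*, the uncoupling protein of brown fat, was at 6.59, 0.0929, 0.0893, 1.96 and 2.68 FPKM in Fat1-IR and was listed at 0 in all 5 WT-Con hearts. Of the 4 brown fat markers tested, 0 passed by limma in Fat1-IR against Fat1-Con, 2 had an unadjusted p under 0.05 and 2 had a log2 difference above 0, with *Ucp1* at 3.19 (limma adjusted p = 0.0534), *Cidea* at 0.38, *Ppargc1a* at -0.15 and *Prdm16* at -0.56, the last with a limma adjusted p of 0.0224 below the fold of 1.5. Not all markers followed *Scd1*, since *Fabp4* (67.3 FPKM) and *Lipe* (4.14 FPKM) were lowest of Fat1-IR in Fat1-IR 4. WT-Con 1 had 2.76 FPKM of *Adipoq*, more than Fat1-IR 4, and 3.28 FPKM of *Scd1*. WT-Con 5 had 10.3 FPKM of *Cfd* and the lowest *Scd1* of all hearts, 2.20 FPKM. With the mean log2 level of the adipocyte markers as a covariate, chosen after seeing the data, the log2 difference of *Scd1* was 0.31 in *fat-1* hearts (limma adjusted p = 0.999) and 0.68 in WT hearts (limma adjusted p = 0.348). The part of adipocytes in the level of *Scd1* was not tested. This fit cannot give it, since the marker level differed between the groups and came from the same libraries as *Scd1*. In this fit the median log2 difference of all genes in *fat-1* hearts also moved, from 0.08 to 0. In the same fit *Elovl5* rose by 0.87 in *fat-1* hearts (limma adjusted p = 0.00499) and by 0.75 in WT hearts (limma adjusted p = 0.000513).

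**Figure D3:**
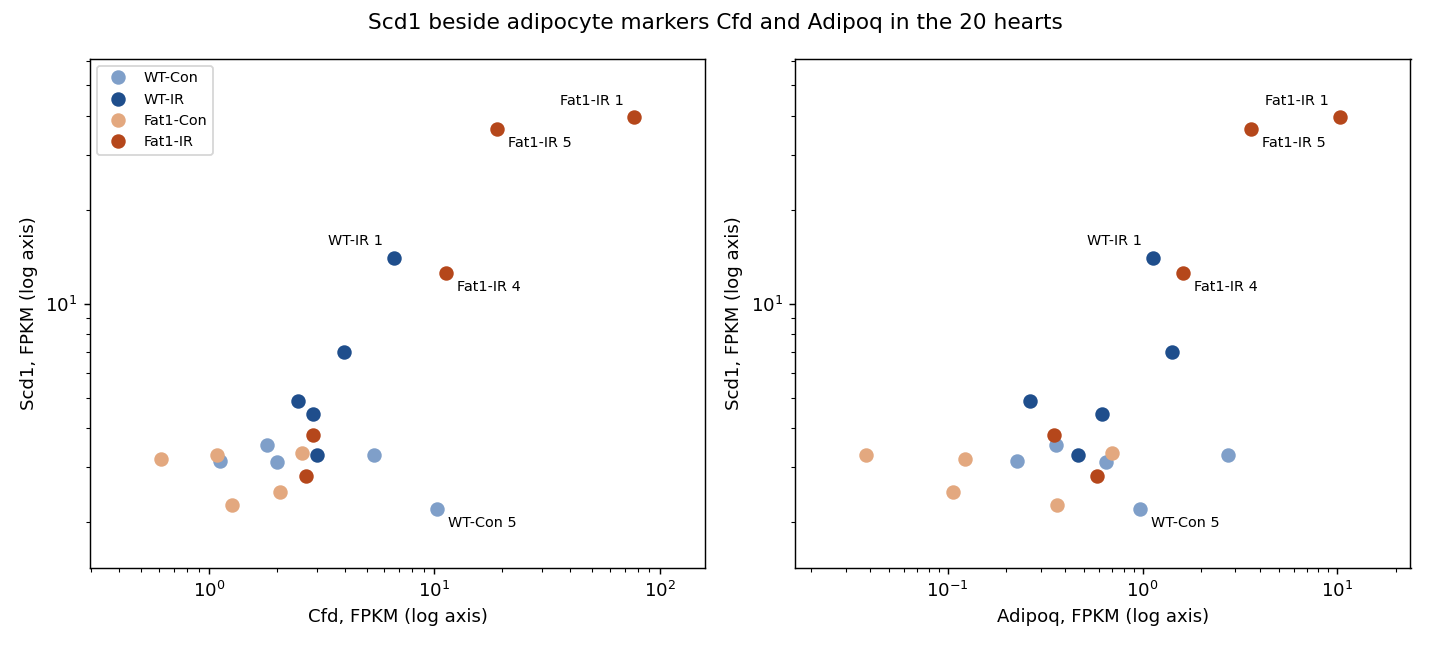
*Scd1* (vertical axis, FPKM, log scale) against the adipocyte genes *Cfd* (left) and *Adipoq* (right, horizontal axes, FPKM, log scale) in each of the 20 hearts, coloured by group, with 5 hearts named. Fat1-IR 1 and Fat1-IR 5, with 39.5 and 36.4 FPKM of *Scd1*, had 77.2 and 18.99 FPKM of *Cfd*, whereas WT-Con 5 had 10.3 FPKM of *Cfd* and 2.20 FPKM of *Scd1*.

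*Scd2*, the stearoyl-CoA desaturase known from brain and from developing skin, was at 1.45, 2.33, 1.999, 1.37 and 1.38 FPKM in WT-Con and at 2.41, 2.46, 2.91, 3.17 and 3.79 FPKM in WT-IR. Every WT-IR heart was above every WT-Con heart. It was at 1.92, 1.87, 1.74, 1.87 and 2.33 FPKM in Fat1-Con and at 1.71, 2.81, 3.41, 7.75 and 2.44 FPKM in Fat1-IR, where 4 of 5 hearts were above every Fat1-Con heart and Fat1-IR 1 was below all of them. *Scd2* passed in neither genotype, with log2 differences of 0.77 in WT (SE 0.27, 95% CI 0.20 to 1.33, limma adjusted p = 0.145) and 0.68 in *fat-1* hearts (SE 0.27, 95% CI 0.11 to 1.24, limma adjusted p = 0.267). The heart with 7.75 FPKM, Fat1-IR 4, was also the heart with lymphocyte transcripts. Its summed level of the 10 lymphocyte markers was 79.2 FPKM, beside 0.434 to 0.994 FPKM in the other Fat1-IR hearts, and *Cd3e*, of the T cell receptor complex, was at 8.18 FPKM there and listed at 0 in 11 of the 20 hearts. The part of these cells in the level of *Scd2* was not tested. Without Fat1-IR 4 the difference of *Scd2* in WT hearts, unchanged at 0.77, passed (limma adjusted p = 0.0229), and that in *fat-1* hearts was 0.36. The fit shares a single estimate of spread among the 4 groups, so this *fat-1* heart also enters the p of the WT comparison. Without all 3 libraries that stood apart, *Scd2* rose in WT hearts by 0.70 on the log2 scale (limma adjusted p = 0.0135) and did not pass in *fat-1* hearts, at 0.54 (limma adjusted p = 0.115).

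With IR averaged over both genotypes, 3 of 8 genes rose and 0 fell, where 2.86% of all genes rose and 1.48% fell. At an unadjusted p under 0.05, 5 of 8 were higher and *Fads3* was lower, where 13% and 6.1% of all genes were. *Elovl5* rose by 0.78 on the log2 scale (SE 0.08, limma adjusted p = 1.80e-06), a fold of 1.72 (95% CI 1.54 to 1.92). *Scd1* rose by 1.45 (SE 0.40, limma adjusted p = 0.0290), a fold of 2.73 (95% CI 1.54 to 4.86), and *Scd2* by 0.72 (SE 0.19, limma adjusted p = 0.0230), a fold of 1.65 (95% CI 1.25 to 2.18). The other 5 did not pass. Of these *Fads1* was nearest, at 0.29 (95% CI 0.10 to 0.48, limma adjusted p = 0.0591), followed by *Fads3* at -0.21 (95% CI -0.40 to -0.02, limma adjusted p = 0.211). *Elovl1* was at 0.19 (95% CI 0.01 to 0.37), *Fads2* at 0.29 (95% CI -0.02 to 0.60) and *Fads6* at 0.16 (95% CI -0.23 to 0.55). The call of *Scd1* lay near the threshold and changed with single hearts. Leaving out WT-IR 1, WT-IR 2, Fat1-Con 2, Fat1-IR 4 or Fat1-IR 5 put its limma adjusted p between 0.0520 and 0.0567. Leaving out Fat1-IR 1, the heart with the most *Scd1*, or any other single heart kept the call. Without the 3 libraries that stood apart *Scd1* was at 1.08 (limma adjusted p = 0.0927), and with the adipocyte covariate at 0.50 (limma adjusted p = 0.440). Without Fat1-IR 4 *Scd2* was at 0.56 (limma adjusted p = 0.0136), below the fold of 1.5, so that *Elovl5* alone then passed.

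Between *fat-1* and WT hearts no member passed the test. In Fat1-Con against WT-Con, limma called 0 of 8 genes, beside 0.0220% of all genes higher and 0.00549% lower, 0 of 8 had an unadjusted p under 0.05, where 2.46% of all genes were higher and 3.17% lower, and limma's voom on fragments called 0. In Fat1-IR against WT-IR limma also called 0 of 8, beside 0.0604% higher and 0.0439% lower, with 0 at an unadjusted p under 0.05 (3.45% of all genes higher and 3.36% lower) and 0 by voom. The 2 comparisons draw on different hearts, and in each the ranges of all 8 genes overlapped. They did not overlap for 0.576% of all genes higher and 0.757% lower in control hearts, and for 0.681% and 0.906% after IR. The median log2 difference of the 8 genes was 0.03 in control hearts, beside -0.01 over all genes, and -0.10 after IR, beside 0.03. In control hearts the mean of *Scd1* was 3.05 ± 0.506 FPKM for WT and 2.91 ± 0.492 FPKM for *fat-1* mice (SD, n = 5), a log2 difference of -0.06 (95% CI -1.24 to 1.11, limma adjusted p = 0.984). This interval rests on a spread shared by all 4 groups. The coefficient of variation of *Scd1* was 16.6% and 16.9% in the controls, but 63.9% and 93.3% after IR. The interval therefore reflects mostly the IR hearts and not the spread of the control hearts, 2.20 to 3.53 FPKM. *Fads1* differed by 0.03 (95% CI -0.24 to 0.30) and *Fads2* by 0.26 (95% CI -0.18 to 0.69) in the same hearts. After IR, *Elovl1* was 0.23 lower in *fat-1* hearts on the log2 scale (-0.23, 95% CI -0.49 to 0.02, limma adjusted p = 0.795), *Elovl5* was at 0.17 (95% CI -0.05 to 0.40) and *Scd1* at 0.95 (95% CI -0.23 to 2.13, limma adjusted p = 0.835). After IR the intervals of *Fads1* (-0.45 to 0.09), *Fads2* (-0.49 to 0.38), *Fads3* (-0.46 to 0.08), *Elovl1* and *Elovl5* stayed within a fold of 1.5 in either direction, and those of *Fads6* (-0.71 to 0.39), *Scd1* and *Scd2* (-0.45 to 0.68) did not. Averaged over both perfusions 0 of 8 passed by limma, beside 0.0384% of all genes higher and 0.0494% lower, with 0 at an unadjusted p under 0.05 (3.55% of all genes higher and 3.59% lower) and 0 by voom.

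The response to IR itself was not shown to differ between the genotypes for any member. In the interaction of genotype and IR, limma called 0 of 8 genes at an adjusted p under 0.05, beside 0.00549% of all genes higher and 0% lower, 0 of 8 had an unadjusted p under 0.05, where 2.69% of all genes were above and 2.62% below 0, and voom called 0. The estimate was largest for *Scd1*, whose IR difference was 1.01 larger on the log2 scale in *fat-1* than in WT hearts (95% CI -0.65 to 2.68, limma adjusted p = 0.832). For *Fads1*, *Fads2* and *Elovl1* it was -0.21 (95% CI -0.59 to 0.18), -0.31 (95% CI -0.92 to 0.31) and -0.19 (95% CI -0.55 to 0.17). For *Scd2* it was -0.09 (95% CI -0.89 to 0.71), and for *Fads3* -0.13 (95% CI -0.51 to 0.25).

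The sum of the 10 transcripts was larger after IR in both genotypes. It was 33.3 to 36.5 FPKM in WT-Con and 41.6 to 49.9 FPKM in WT-IR. In *fat-1* hearts it was 31.2 to 38.1 FPKM in Fat1-Con and 38.3 to 71.9 FPKM in Fat1-IR. The ranges did not overlap in either genotype, but in *fat-1* hearts the gap was narrow. Fat1-Con 4 was at 38.08 FPKM and Fat1-IR 2 at 38.32 FPKM. Leaving out hearts cannot make such ranges overlap, so the 3 libraries that stood apart give no check here. *Fads3* made up a median of 46.2% of the sum in WT-Con, 30.9% in WT-IR, 42.6% in Fat1-Con and 23.6% in Fat1-IR. It was the highest member in 17 hearts, and *Scd1* was the highest in WT-IR 1, Fat1-IR 1 and Fat1-IR 5. The ratio of *Elovl5* to *Fads3* was 0.270 to 0.430 in WT-Con and 0.421 to 0.749 in WT-IR, ranges that overlapped only between WT-IR 4 and a WT-Con heart. It was 0.283 to 0.456 in Fat1-Con and 0.668 to 1.05 in Fat1-IR, which did not overlap. The ratio of *Elovl5* to *Elovl1* was 1.03 to 1.80 in WT-Con, 1.74 to 2.10 in WT-IR, 1.37 to 1.66 in Fat1-Con and 2.05 to 3.29 in Fat1-IR. The ratio of *Scd1* to *Scd2* had medians of 1.59 and 1.53 in WT-Con and WT-IR and of 1.43 and 1.62 in Fat1-Con and Fat1-IR, and a highest value of 23.1 in Fat1-IR 1.

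**Figure D4:**
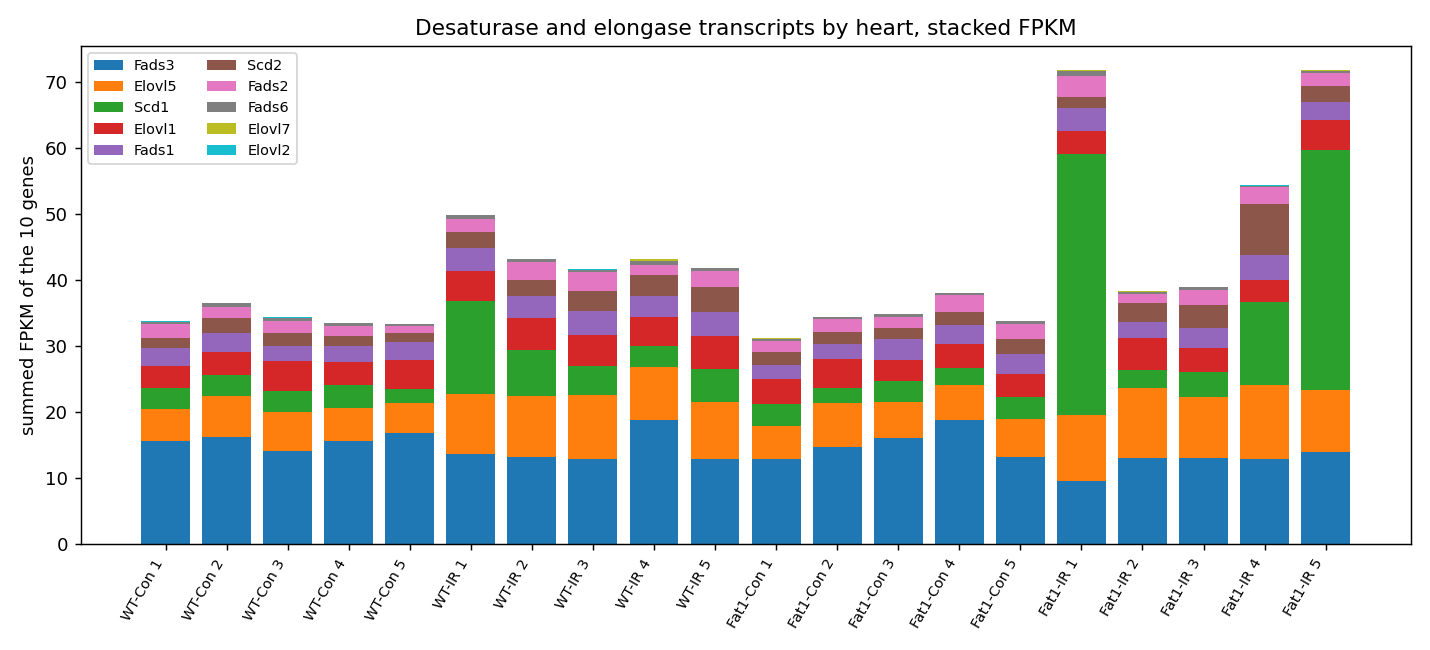
Summed FPKM of the 10 genes in each heart (vertical axis from 0), stacked by gene, for the 20 hearts of the 4 groups. The sum lies between 31.2 and 38.1 FPKM in the 10 control hearts and between 38.3 and 71.9 FPKM in the 10 IR hearts, and *Scd1* makes up 55.1% of it in Fat1-IR 1.

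The enzymes that work with these genes were described from lists of their names. The elongation cycle is completed by a ketoacyl reductase, dehydratases and an enoyl reductase. Of 7 such genes 1 rose in WT-IR and 0 in Fat1-IR, where 2.01% and 1.30% of all genes rose. The dehydratase gene *Hacd4* rose from 0.461 to 0.939 FPKM in WT hearts (log2 fold change 0.90, limma adjusted p = 0.0152). In *fat-1* hearts *Hacd4* was at 0.463 FPKM in Fat1-Con and 0.540 FPKM in Fat1-IR and did not pass. Its interaction was -0.69 (limma adjusted p = 0.831). The reductase gene *Hsd17b12* was at 0.35 in *fat-1* hearts (limma adjusted p = 0.209). Of 6 genes of the cytochrome b5 system, which gives the desaturases their electrons, 0 passed in either genotype, with 0 at an unadjusted p under 0.05 in WT-IR and 2 in Fat1-IR, *Cyb5a* at 0.37 and *Cyb5r2* at -0.70. Of 7 further desaturases and elongases 3 were tested and 0 passed. *Degs1*, the dihydroceramide desaturase, had 23.1, 20.7, 20.6 and 21.4 FPKM on average in WT-Con and WT-IR, then Fat1-Con and Fat1-IR, above the group mean of each of the 10 members in every group. *Elovl6*, the elongase of palmitate, was at 0.70 in *fat-1* hearts (limma adjusted p = 0.376).

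Of 16 regulators of lipid synthesis 0 passed in WT-IR and 0 in Fat1-IR, with 1 and 2 at an unadjusted p under 0.05. Their difference was above 0 for 8 of 16 in WT-IR and 7 in Fat1-IR. At that p 9.84% of all genes were higher and 5.09% lower in WT-IR, and 8.38% and 4.17% in Fat1-IR. *Srebf1*, which encodes SREBP-1, was at 3.92, 3.83, 4.01 and 3.64 FPKM on average in WT-Con and WT-IR, then Fat1-Con and Fat1-IR, with log2 differences after IR of -0.01 in WT and -0.15 in *fat-1* hearts (limma adjusted p = 0.981 and 0.712). *Insig1*, a sterol-regulated inhibitor of SREBP processing, was at 0.06 in WT and 0.51 in *fat-1* hearts (limma adjusted p = 0.935 and 0.244). Of 9 genes of fatty acid synthesis 0 passed in either genotype, with 1 and 4 at an unadjusted p under 0.05. *Fasn*, the fatty acid synthase, averaged 1.86, 2.36, 2.32 and 3.84 FPKM in the same order of groups (limma adjusted p = 0.621 in WT and 0.209 in *fat-1* hearts). Of 11 tested cholesterol genes that SREBP-2 controls 0 passed, with 3 and 2 at an unadjusted p under 0.05. Their difference was above 0 for 8 of 11 in WT-IR and 7 in Fat1-IR. Of 7 genes controlled by the liver X receptor 0 passed. *Pltp*, the phospholipid transfer protein, had 5.97 FPKM in WT-Con and 8.90 in WT-IR (log2 fold change 0.57, limma adjusted p = 0.00698). It stayed below the fold of 1.5. In *fat-1* hearts *Pltp* had 5.41 FPKM in Fat1-Con and 6.14 in Fat1-IR. These lists were not counted under voom.

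Marker transcripts of other cell types also differed after IR. In WT-IR against WT-Con 9 of 10 endothelial, 10 of 10 fibroblast and 7 of 10 macrophage markers had an unadjusted p under 0.05, all of them higher but for the endothelial gene *Cldn5* and the macrophage gene *Adgre1*. In Fat1-IR against Fat1-Con it was 3, 4 and 4 of 10, and 7, 9 and 9 of 10 had a difference above 0. At that unadjusted p 9.84% of all genes were higher and 5.09% lower in WT-IR, and 8.38% and 4.17% in Fat1-IR. By limma 2, 1 and 2 of 10 rose in WT-IR and 0 in Fat1-IR, where 2.01% and 1.30% of all genes rose. The summed fibroblast level was 436.7 to 693.2 FPKM in WT-Con and 598.3 to 772.9 FPKM in WT-IR, and the macrophage level 76.9 to 184.5 and 114.7 to 136.2 FPKM. Of 9 Schwann cell markers tested, *Pmp22* rose in WT-IR (log2 fold change 0.72, limma adjusted p = 0.000523) and *Prx* in Fat1-IR (0.94, limma adjusted p = 0.0394). Of 10 cardiomyocyte markers 0 passed in either genotype. The part of these cells in the differences of *Elovl5*, *Fads1*, *Elovl1* and *Scd2* was not tested.

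The genes most like a member over the 20 hearts were found by the Pearson correlation of log2(FPKM + 0.1) among genes that averaged 1 FPKM or more. All hearts of the 4 groups enter, so the correlations contain the group differences, and they are a description. For *Elovl5* they were *Slc35e2* (r = 0.939, Spearman's rho 0.922), *Xpo1* (r = 0.922, rho 0.908), which encodes the main exporter of proteins from the nucleus, and *Hspa1b* (r = 0.921, rho 0.847), an inducible heat shock protein gene whose near-identical copy *Hspa1a* can share its reads. Without WT-Con 5 and Fat1-IR 4, the hearts with the lowest and highest *Elovl5*, r was 0.924, 0.900 and 0.918. For *Scd1* they were *Car3* (r = 0.867, rho 0.732), an adipocyte marker, *Fbxl14* (r = 0.864, rho 0.620) and *Pmaip1* (r = 0.860, rho 0.615). Without Fat1-IR 1 and Fat1-IR 5 these were at 0.689, 0.681 and 0.785, so that the likeness to *Car3* rested in part on these hearts. For *Scd2* they were *Ccnd3* (r = 0.854, rho 0.752), *Hdac7* (r = 0.849, rho 0.675) and *Pip4k2a* (r = 0.848, rho 0.717), which without Fat1-IR 4 and WT-Con 4 were at 0.721, 0.676 and 0.739. For *Fads3* they were *Pm20d1* (r = 0.892, rho 0.898), *Dhrs11* (r = 0.828, rho 0.684) and *Creg1* (r = 0.809, rho 0.817), which without Fat1-IR 1 and WT-IR 4 were at 0.830, 0.674 and 0.650.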

How the data were processed

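Ventricular RNA of 20 hearts, 5 separate samples in each of 4 groups, was isolated with TRIzol and sequenced on an Illumina HiSeq. The submitters' processing notes name HISAT2, featureCounts and mm10. Versions, the annotation release and the strand setting are not given by them. The deposited table holds FPKM values, which the authors made from fragments counted per gene. Gene lengths from GENCODE M21 gave back whole fragments (tolerance 0.02, below 1000 fragments) for 98.5% of the 31217 matched genes, and from these the depth, between 15626848 and 25993338 fragments, was read. The depth limits precision most for *Elovl2* and *Elovl7*.

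The 18219 genes that averaged 0.1 FPKM or more were fitted as log2(FPKM + 0.1) with limma 3.58.1 (trend, R 4.3.3) over all 4 groups, with 16 residual degrees of freedom. Each gene has a single estimate of spread, shared by the 4 groups, so an interval does not reflect a smaller or larger spread in the groups compared. Differences are on that scale, log2(FPKM + 0.1), which understates low genes. Calls needed a Benjamini-Hochberg adjusted p under 0.05 and a fold over 1.5, the interaction the p alone. Tables were made in Python 3.11.15 (pandas 2.3.3, numpy 2.4.6) and drawn with matplotlib 3.10.9. The fit was tried on simulated data, with changes planted in WT-IR only and the same spread between hearts for a gene in all groups. This simulation does not cover a spread that differs between groups, as that of *Scd1* did. The members and lists were chosen with earlier results of these data known. All 10 members are named. Of each other list at most 4 genes per comparison were named, those called with the smallest p first. *Srebf1*, *Insig1*, *Degs1*, *Pltp*, *Fasn*, *Acacb*, *Elovl6* and the marker genes given by heart were added after their values were seen. Likeness used the 3 genes with the highest r. The alternatives were other filters, pseudocounts, scalings, variance models, fold thresholds, voom, a replicate block, subsets of hearts and each heart left out. The adipocyte covariate and the fit without 3 libraries were chosen after seeing the data.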

Additional observations from a re-analysis of the deposited data

Results flagged for a closer look

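In 4 of the 40 sets of 5 hearts, 10 genes in 4 groups, the highest or lowest heart lay far from the others, with a gap to its neighbour of more than 0.71 of the group's range. For 5 independent values from a normal distribution, chance gives about 1 such set in 20. That rate need not hold here, since FPKM can be skewed, some genes lie near 0 and the sets share libraries. *Fads3* was at 18.8 FPKM in WT-IR 4, the highest of its group, and at 9.51 FPKM in Fat1-IR 1, the lowest of its group. *Elovl7* was at 0.272 FPKM in WT-IR 4, on 22 fragments. *Scd2* was at 7.75 FPKM in Fat1-IR 4, the heart with 79.2 FPKM of summed lymphocyte markers, and the part of these cells in that value was not tested.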

How the results depend on the processing

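Over 36 alternative settings, 1912 of 1969 log2 differences of single members kept their direction and their side of the threshold, and 38 changed sign, each of them uncalled. *Elovl5* after IR did so in 104 of 107 values, the others being the fold over 2. It ranged from 0.66 to 0.88 in WT and from 0.73 to 0.88 in *fat-1* hearts. Both counts include values whose direction could not change. The fold thresholds, the replicate block, the fit without the trend and each pair of groups fitted alone kept the same log2 differences. So did leaving out a heart of a group that was not compared. In WT-IR, 2 members passed with array weights, and 2 without the 3 libraries that stood apart, *Scd2* being the second. With a fold over 2, 0 passed in WT-IR, 0 in Fat1-IR and 1, *Scd1*, for IR averaged over genotypes. With each heart left out in turn, 1 to 2 members passed in WT-IR, 1 to 2 in Fat1-IR and 1 to 3 for IR averaged. *Scd1* averaged over genotypes also missed the threshold with no filter (limma adjusted p = 0.0578), and *Scd2* missed the fold at a pseudocount of 1 (0.54). A fold threshold moves only the cut-off on the same fit, and a heart left out also changes the spread that the 4 groups share. Other causes of these changes were not tested.

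The following signs changed. With array weights *Fads2* was at -0.0533 in Fat1-IR against Fat1-Con and -0.1095 between genotypes averaged, and *Fads6* at -0.1049 in Fat1-Con against WT-Con. Scaled to fragments outside the mitochondrial genome, *Fads3* was at 0.0373, *Elovl1* at 0.0548 and *Scd1* at 0.0315 in Fat1-Con against WT-Con, and *Elovl5* at -0.1226 in the interaction, where the median of all genes moved from 0.04 to -0.14. Under TPM scaling *Fads2* was at 0.0328 in Fat1-IR against WT-IR and *Scd2* at 0.0109 in the interaction. Without the 3 libraries *Fads2* was at -0.0947 in Fat1-IR against Fat1-Con and -0.0755 between genotypes, *Fads6* at -0.1361 and *Elovl1* at 0.0094 in Fat1-Con against WT-Con, *Scd2* at -0.0245 in Fat1-IR against WT-IR and *Fads6* at 0.0029 in the interaction. With the adipocyte covariate *Fads2* was at -0.0872 in Fat1-IR against Fat1-Con, *Scd1* at 0.498 in Fat1-Con against WT-Con and -0.3722 in the interaction, and *Scd2* at 0.27 there. With each heart left out, *Fads6* ranged from -0.1134 to 0.2592 in Fat1-IR against Fat1-Con. In Fat1-Con against WT-Con, *Fads1* ranged from -0.029 to 0.0992, *Fads6* from -0.1361 to 0.1317, *Elovl1* from -0.1007 to 0.0151 and *Scd1* from -0.1751 to 0.0178. In Fat1-IR against WT-IR, *Fads2* ranged from -0.1757 to 0.0972, *Fads6* from -0.3337 to 0.0388 and *Scd2* from -0.2011 to 0.3274. *Scd2* ranged from -0.4057 to 0.1228 in the interaction and *Fads6* from -0.1468 to 0.0395 between genotypes.

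Hearts with the same number were not paired. Their 30 correlations of deviations ran from -0.136 to 0.06, and 1 of 20 hearts was best correlated with its own number. With a replicate block the members called stayed at 1 in WT-IR, 1 in Fat1-IR and 3 for IR averaged, with an adjusted p for *Elovl5* of 0.00117 in WT and 0.000511 in *fat-1* hearts (limma). Over all genes, calls varied with the setting from 138 to 642 higher and 66 to 351 lower in WT-IR (367 and 216 as reported), and from 62 to 428 higher and 58 to 317 lower in Fat1-IR (236 and 128 as reported).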
